A study of Oryctolagus cuniculus with 20 samples.

Results

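The 63 genes described carry symbols of vesicle traffic genes: RAB, ARF and ARL GTPases with their partners, the TBC1D family, clathrin and its adaptors, sorting nexins, VPS genes, CHMP subunits, SNAREs with their binding proteins, and an exocyst subunit. VPS72 has the prefix but acts in chromatin remodelling. All 63 were selected on the study's list of differentially expressed genes, by the first letters of the symbol and by an ID that stands in the count table of 23669 genes. Of 77 entries with such a symbol, 63 had an ID in the count table, and all 63 passed the filter on low counts, as 8683 genes did. The 14 other entries had IDs longer (11) or shorter (3) than those of the count table and have no values here: ARF1, CHMP3, CHMP4B, RAB7A, RAB12, RAB18, RAB29, RAB30, RAB31, RAB33A, SNX2, STXBP3, VPS13C and a further entry of ARL1. No ID in the list's section for serotonin alone matches the count table, so no gene became a member through that section. The further entry of ARL1 stands there with the digits of the ID of the member ARL1, which entered through its other entry, for both drugs. The contrasts that chose the members set treated against non-treated valves: 40 members were chosen through both drugs, 10 through pergolide alone and 13 through dexfenfluramine alone. Calls in those contrasts describe the chosen genes and are no independent test of them.

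Vesicles carry proteins and lipids between the endoplasmic reticulum, the Golgi apparatus, endosomes, lysosomes and the cell surface. Small GTPases of the RAB and ARF families mark each membrane and recruit coats, tethers and motors, coat proteins such as clathrin gather cargo, and SNAREs fuse the vesicle with its target. In heart valves, interstitial cells secrete collagen and other matrix proteins by this route and take back integrins and growth factor receptors through endosomes, which return them to the surface or pass them on to lysosomes.

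The study sequenced RNA of tricuspid valves from 20 female New Zealand White rabbits, 8 weeks old at the start and kept for 16 weeks, to find genes that differ after each treatment. Non-treated rabbits (5) drank water without a drug, and the other groups (5 each) drank serotonin (80 mg/kg a day), the ergot-derived dopamine agonist pergolide (0.5 mg/kg a day) or the appetite suppressant dexfenfluramine (20 mg/kg a day), while the results text of the study names another dose of dexfenfluramine. Each library is the bulk tissue of 1 rabbit's valve after depletion of ribosomal RNA. Non-treated libraries held 4206516 to 5831376 counts, serotonin libraries 3526853 to 4880440, pergolide libraries 4484239 to 5921025 and dexfenfluramine libraries 3247091 to 5790948. Levels are CPM, each count as a part of its valve's library size after scaling by the trimmed mean of M values (TMM), and they compare valves, not genes. TMM factors were 0.584 to 1.25 in non-treated, 0.659 to 1.11 in serotonin, 0.990 to 1.26 in pergolide and 1.08 to 1.72 in dexfenfluramine valves. The most abundant gene held on average 40.7%, 35.9%, 32.9% and 29.1% of counts in the same order of groups. Fold changes are on the log2 scale with their standard error (n = 5 valves a group), and a gene is said to have risen or fallen where edgeR's quasi-likelihood test gave an adjusted p under 0.05.

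A pair of valves stood apart from their groups. Dexfenfluramine replicate 3 had a mean correlation of log2 CPM of 0.946 with the other valves of its group. Non-treated replicate 3 had one of 0.953, close to the 0.955 of non-treated replicate 4. It differed from the other non-treated valves in its TMM factor (1.25, against 0.584 to 0.823) and in the share of its most abundant gene (28.5% of counts, against 40.4% to 48.1%). Among the markers of cardiomyocytes, summed CPM was 13019 in the former, against 54480 to 73781 in the other dexfenfluramine valves, and 51213 in the latter, against 101283 to 156694 in the other non-treated valves. Non-treated replicate 4 had the lowest interstitial cell, endothelial and macrophage marker sums and the highest adipocyte sum of its group and was kept. Counts of members are given with and without the pair.

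Against non-treated valves, 24 members rose and 20 fell under pergolide, 44 in all, where 24.8% of all tested genes were called, 12.1% higher and 12.7% lower. Under dexfenfluramine 25 rose and 20 fell, 45 in all, where 28.9% of all tested genes were called, 13.5% higher and 15.4% lower. The choice of members set these counts. Of 2894 tested genes that the study's list names, 55.4% were called for pergolide and 66.6% for dexfenfluramine. Rises outnumbered falls for pergolide under TMM, upper-quartile scaling (25 and 18) and DESeq2's size factors (22 and 21) but not without the gene with the most counts (21 and 22). Treated and non-treated valves did not overlap in 30 members for pergolide, where 16.3% of all genes did not, and in 31 for dexfenfluramine, where the share was 17%. The median size of the members' fold changes was 0.40 for either drug, beside 0.28 and 0.30 over all tested genes and 0.46 and 0.50 over the tested genes of the study's list. For both drugs 22 members rose and 14 fell, where 8.99% and 10.6% of all tested genes did. EXOC4, RAB6C, RAB34, RAB3GAP1, SNX24, SNX25, STXBP5, TBC1D4, VPS13A and VPS13B were called for neither drug. Without the pair of valves that stood apart, 41 members were called for pergolide and 43 for dexfenfluramine, where 28.4% and 28.3% of all genes were. Limma-voom with 4 svaseq variables called 24 and 21, where 13.3% and 11.4% of all genes were called. In bulk valves, fewer cells of a type and less RNA per cell cannot be told apart for any of these genes.

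**Figure D1:**
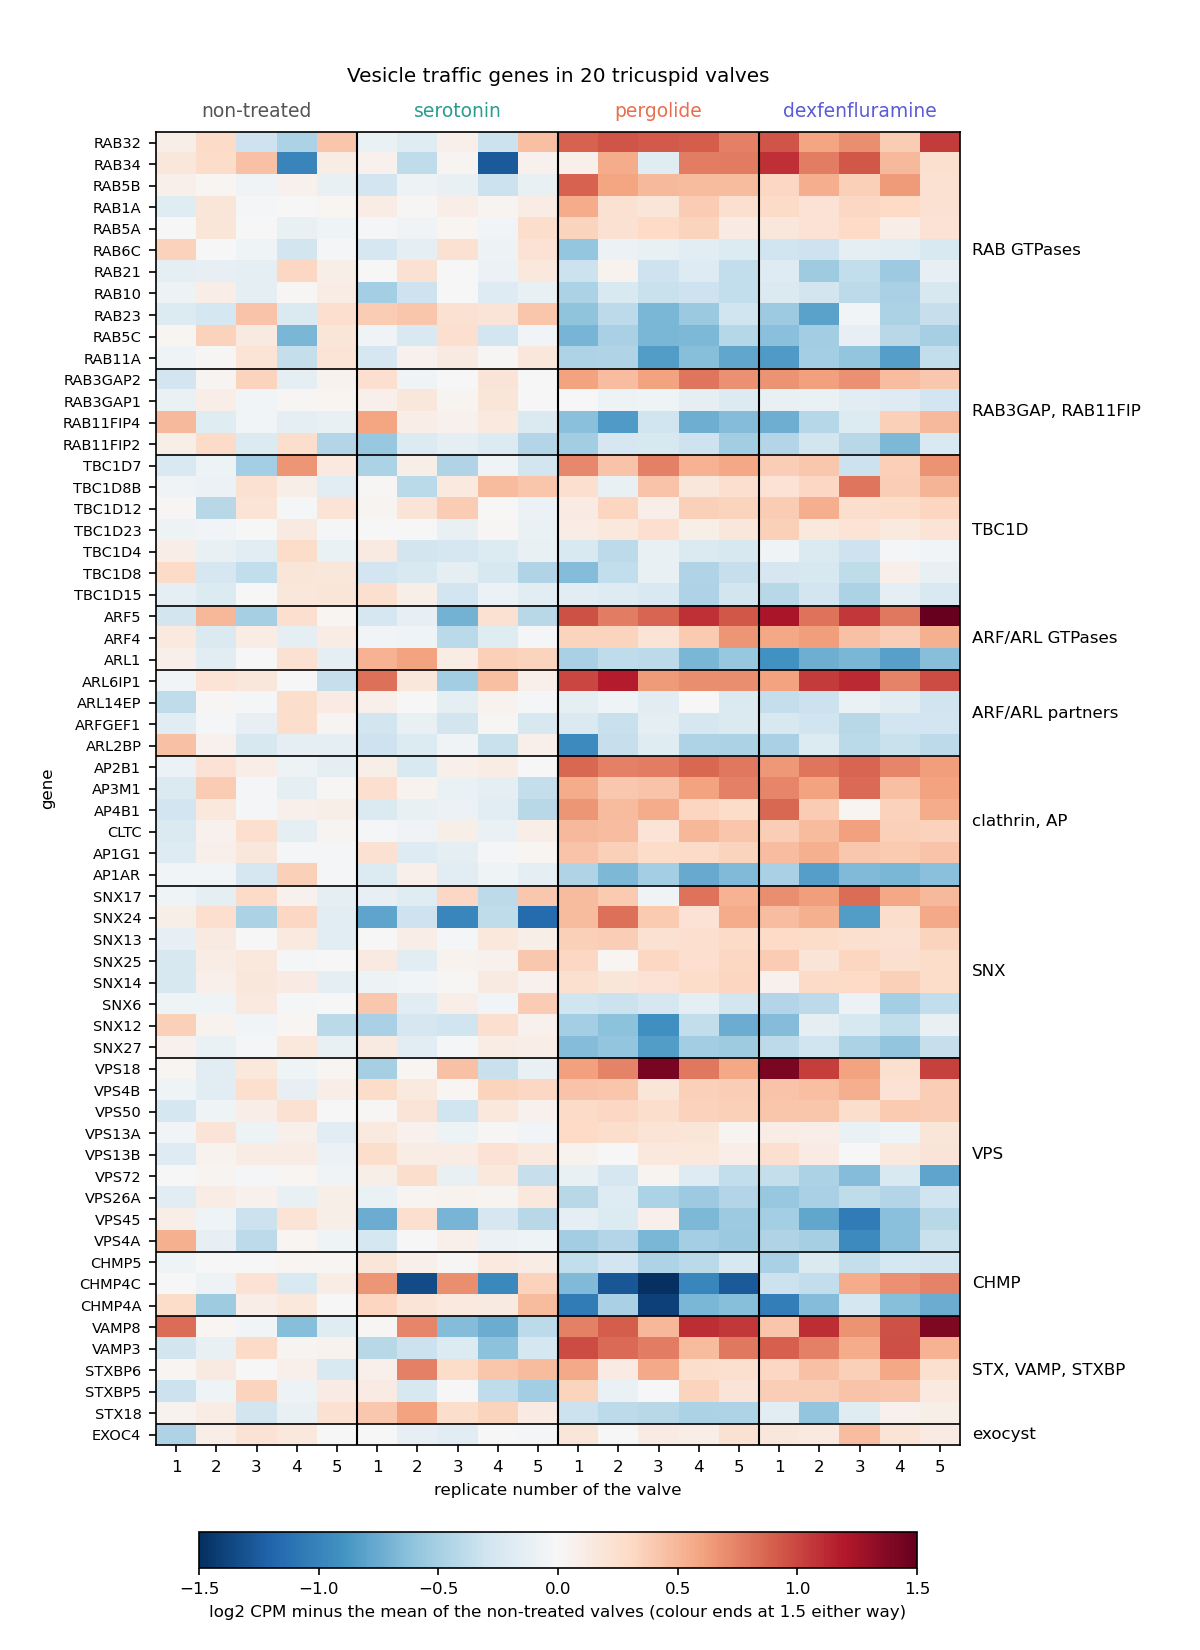
Log2 CPM of 61 of the genes (y axis, by class) in each of the 20 valves (x axis, replicate number within group) minus the mean of the 5 non-treated valves, in colour from −1.5 to 1.5. Pergolide and dexfenfluramine valves show rises and falls within nearly every class, with clathrin and adaptor genes mostly red and CHMP genes mostly blue, while serotonin valves stay closer to the non-treated ones.

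Among the 11 RAB GTPases, the switches that give each membrane its identity, 4 rose and 4 fell under pergolide, and 3 rose and 5 fell under dexfenfluramine (4 and 5 with upper-quartile scaling). RAB11A, which marks the recycling endosome and returns cargo to the cell surface, stood at 83.7, 89.2, 101, 68.5 and 101 CPM in non-treated valves, 73.9, 91.8, 96.7, 89.0 and 98.6 in serotonin valves, 63.4, 64.2, 48.9, 56.1 and 50.9 in pergolide valves, and 48.6, 61.4, 58.0, 49.2 and 68.1 in dexfenfluramine valves. Every valve of either drug lay below every non-treated and every serotonin valve. RAB11A fell, by a log2 fold change of −0.65 ± 0.12 for pergolide and −0.64 ± 0.12 for dexfenfluramine, and stood at 0.02 ± 0.12 for serotonin. RAB11FIP2, an effector that links RAB11 to its membranes, fell as well (−0.39 ± 0.14 and −0.42 ± 0.14, and −0.33 ± 0.14 without a call for serotonin), although leaving out 1 valve ended its call in 6 of 10 fits for pergolide (−0.50 to −0.32) and in 3 for dexfenfluramine (−0.53 to −0.36). RAB11FIP4, another RAB11 effector, had means of 5.36 ± 1.25, 5.96 ± 1.34, 3.28 ± 0.562 and 5.15 ± 1.97 CPM (SD) in non-treated, serotonin, pergolide and dexfenfluramine valves. It fell under pergolide (−0.69 ± 0.25), a call that 9 of 10 fits without 1 valve did not keep, and stood at −0.03 ± 0.24 under dexfenfluramine. Limma-voom with svaseq variables kept both RAB11A calls (−0.46 and −0.43). It ended those of RAB11FIP2 (−0.22 and −0.19) and RAB11FIP4 (−0.41).

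The RAB5 paralogs, which direct early endosomes and the fusion of vesicles from the cell surface, moved in different directions. RAB5B stood at 39.3, 38.2, 36.2, 39.1 and 34.5 CPM in non-treated valves, 30.5, 35.5, 34.5, 29.8 and 34.6 in serotonin valves, 69.5, 56.7, 52.5, 52.1 and 52.3 in pergolide valves, and 46.5, 54.6, 47.9, 58.5 and 44.1 in dexfenfluramine valves. RAB5C stood at 38.2, 47.7, 41.3, 23.2 and 42.8 CPM in non-treated valves, 36.3, 32.0, 45.0, 30.8 and 36.5 in serotonin valves, 23.0, 26.7, 23.2, 23.4 and 27.9 in pergolide valves, and 24.1, 26.0, 34.4, 28.0 and 26.5 in dexfenfluramine valves. RAB5B levels under either drug were all above those of non-treated and serotonin valves, whereas RAB5C levels were mostly lower under the drugs with non-treated replicate 4 and serotonin replicates 2 and 4 inside the drug range. RAB5B rose (0.60 ± 0.10 for pergolide, 0.43 ± 0.10 for dexfenfluramine), and RAB5C fell (−0.64 ± 0.15 and −0.48 ± 0.15), the latter without a call once non-treated replicate 2 was left out (−0.40). RAB5A rose under pergolide (0.26 ± 0.08), not called without non-treated replicate 4 or without non-treated replicate 5 (lowest value 0.22), and stood at 0.20 ± 0.08 under dexfenfluramine. The calls of the RAB5 genes were kept with svaseq variables.

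Of the other RAB GTPases, RAB32, which acts at mitochondria and lysosome-related organelles, rose most, from 11.1 ± 2.94 CPM (mean and SD) in non-treated valves to 20.3 ± 1.05 under pergolide and 18.5 ± 3.46 under dexfenfluramine (0.87 ± 0.17 and 0.74 ± 0.17). RAB1A, needed between the endoplasmic reticulum and the Golgi, rose in both (0.32 ± 0.08 and 0.27 ± 0.08). RAB10, which guides vesicles to the cell surface, fell in both (−0.34 ± 0.09 and −0.33 ± 0.09), and RAB21, which binds integrins during endocytosis, fell under dexfenfluramine (−0.36 ± 0.11, −0.23 ± 0.11 for pergolide), with its call ended in 3 of 10 fits without 1 valve (−0.42 to −0.28). RAB23, a negative regulator of Hedgehog signalling, fell in both (−0.54 ± 0.14 and −0.46 ± 0.14), the latter without a call in 3 of 10 fits (−0.58 to −0.34). RAB34, which takes part in building primary cilia, had no call (0.39 ± 0.28 and 0.67 ± 0.28). RAB6C had none either (−0.23 ± 0.12 and −0.24 ± 0.12), and its name is uncertain, since a near-identical RAB6 gene could share its reads. With svaseq variables the calls of RAB32 and RAB23 were kept. Those of RAB1A (0.28 and 0.24), RAB10 (−0.31 and −0.27) and RAB21 (−0.26) ended.

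RAB proteins are switched off by GTPase-activating proteins and on by exchange factors. RAB3GAP2 and RAB3GAP1, the non-catalytic and catalytic subunits of 1 complex that inactivates RAB3 and activates RAB18, had different values. RAB3GAP2 stood at 49.1, 61.5, 75.5, 54.1 and 62.4 CPM in non-treated valves, 71.5, 57.6, 60.2, 68.4 and 60.1 in serotonin valves, 91.4, 82.7, 91.0, 105 and 96.6 in pergolide valves, and 95.5, 92.03, 96.5, 82.6 and 79.4 in dexfenfluramine valves. All drug valves were above all other valves, and the gene rose (0.62 ± 0.10 and 0.55 ± 0.10). With svaseq variables its values were smaller, 0.34 and 0.22, the latter without a call. RAB3GAP1 had means of 139.6 ± 7.23, 149 ± 8.46, 130.4 ± 6.87 and 124 ± 6.38 CPM (SD) in the same order of groups and was not called (−0.10 ± 0.07 and −0.17 ± 0.07). The 4 genes of the RAB3GAP and RAB11FIP class held 1 rise and 2 falls for pergolide (1 and 0 with upper-quartile scaling, so that the majority turned) and 1 of each for dexfenfluramine (1 and 2 with DESeq2's size factors or without the gene with the most counts).

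The TBC domain speeds GTP hydrolysis by RAB proteins. Of 7 TBC1D genes 1 rose and 1 fell under pergolide (1 and 2 with DESeq2's size factors, 1 and 3 without the gene with the most counts), and under dexfenfluramine 3 rose and 1 fell (2 and 1 without that gene). TBC1D7, a subunit of the TSC complex that restrains mTORC1, rose under pergolide (0.58 ± 0.20, 0.30 ± 0.20 for dexfenfluramine), with the call ended in 8 of 10 fits (0.45 to 0.78). TBC1D15, which inactivates RAB7, fell under dexfenfluramine (−0.32 ± 0.11, −0.28 ± 0.11 for pergolide), with the call ended in 5 fits (−0.38 to −0.28). TBC1D23, which helps capture vesicles at the trans-Golgi, rose under dexfenfluramine by 0.22 ± 0.07, TBC1D12, which binds RAB11, by 0.34 ± 0.12 and TBC1D8B by 0.45 ± 0.14, with calls ended in 3, 6 and 4 of 10 fits (0.18 to 0.24, 0.24 to 0.40 and 0.35 to 0.51). TBC1D8, a paralog of TBC1D8B, fell under pergolide (−0.40 ± 0.13, ended in 5 fits, −0.49 to −0.34), and TBC1D4, which holds back RAB10 and glucose transporter vesicles, was not called (−0.24 ± 0.10 and −0.13 ± 0.10). All TBC1D calls ended with svaseq variables, where TBC1D4 was called for pergolide (−0.34). In that fit TBC1D7 stood at 0.56 and TBC1D8 at −0.29 for pergolide. For dexfenfluramine TBC1D15 stood at −0.32, TBC1D23 at 0.17, TBC1D12 at 0.19 and TBC1D8B at 0.26.

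**Figure D2:**
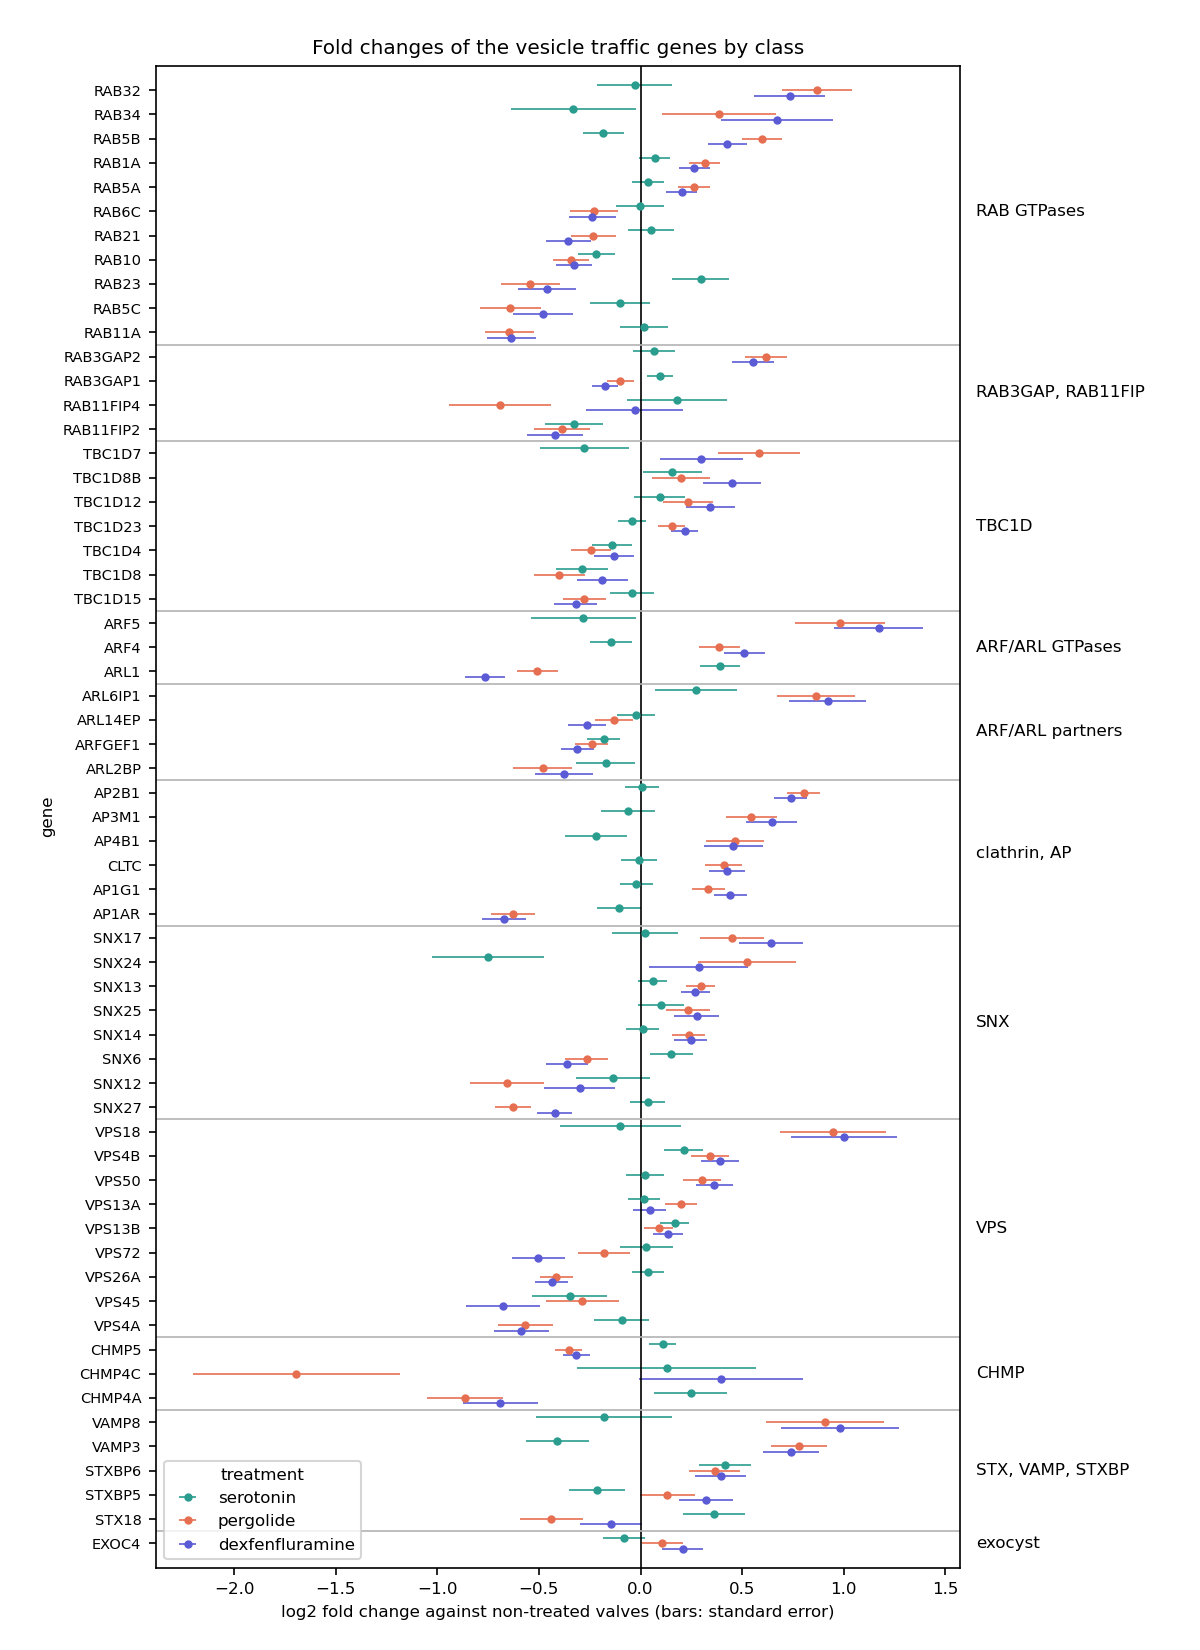
Log2 fold change against non-treated valves (x axis) with its standard error for each of 61 genes (y axis, by class) under serotonin, pergolide and dexfenfluramine, 5 valves a group. ARF5 and VPS18 lie to the right and CHMP4A, ARL1 and RAB11A to the left for both drugs, and CHMP4C lies at −1.70 for pergolide and at 0.40 for dexfenfluramine.

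ARF and ARL GTPases recruit coats and tethers to Golgi membranes. ARL1 brings golgin tethers to the trans-Golgi. Its level was 67.8, 57.4, 64.8, 75.6 and 58.0 CPM in non-treated valves, 92.3, 98.4, 69.8, 82.6 and 81.5 in serotonin valves, 46.0, 49.4, 49.1, 39.8 and 43.2 in pergolide valves, and 34.0, 38.4, 39.8, 36.5 and 41.2 in dexfenfluramine valves. The groups stood in the order serotonin, non-treated, pergolide and dexfenfluramine, and no drug valve reached the lowest non-treated valve. ARL1 fell (−0.51 ± 0.10 for pergolide and −0.77 ± 0.10 for dexfenfluramine), and both calls were kept with svaseq variables.

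ARF4 and ARF5, the class II ARFs of the early secretory pathway, both rose, ARF4 by 0.39 ± 0.10 and 0.51 ± 0.10 and ARF5 by 0.98 ± 0.22 and 1.17 ± 0.22. ARF5 counts were few, 6 to 17 reads in each non-treated or serotonin valve and 29 to 61 under the drugs. The ARF5 calls were kept and the ARF4 calls ended with svaseq variables, the latter at 0.32 and 0.42.

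Of the 4 partners of these GTPases, 1 rose and 2 fell for either drug (1 and 3 for dexfenfluramine with DESeq2's size factors or without the gene with the most counts, 1 and 1 with upper-quartile scaling). ARL6IP1, a protein that shapes tubules of the endoplasmic reticulum, rose from 11.6 ± 1.72 CPM to 21.1 ± 3.65 and 21.96 ± 3.24 (0.86 ± 0.19 and 0.92 ± 0.19). ARFGEF1, an exchange factor that activates ARFs at the trans-Golgi, fell (−0.24 ± 0.08 and −0.31 ± 0.08), with the pergolide call ended in 6 of 10 fits (−0.29 to −0.18). ARL2BP, which binds ARL2, fell under pergolide (−0.48 ± 0.14, lowest in size at −0.37, not called without non-treated replicate 1 or without pergolide replicate 1) and stood at −0.38 ± 0.14 under dexfenfluramine. ARL14EP, an effector of ARL14, fell under dexfenfluramine (−0.27 ± 0.09, ended in 6 of 10 fits, −0.35 to −0.21) and stood at −0.13 ± 0.09 under pergolide. The ARL2BP call ended with svaseq variables (−0.24), and those of the other 3 genes were kept.

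Clathrin forms the outer coat of vesicles, and adaptors tie it to cargo and membrane. Of 6 clathrin and adaptor genes, 5 rose and 1 fell under either drug, also with all 3 other scalings. AP2B1, the β subunit of AP2, which gathers receptors into clathrin-coated pits at the cell surface, stood at 64.6, 79.7, 73.7, 65.0 and 62.4 CPM in non-treated valves, 72.9, 58.6, 72.5, 74.3 and 68.5 in serotonin valves, 125, 117, 117, 125 and 119.5 in pergolide valves, and 108, 121, 127, 115 and 106 in dexfenfluramine valves. Every drug valve was above every other valve, with a gap from 79.7 to 106 CPM, and AP2B1 rose by 0.80 ± 0.08 and 0.74 ± 0.08. CLTC, the clathrin heavy chain, stood at 246, 298, 339, 260.3 and 292 CPM in non-treated valves, 279, 276, 303, 266 and 305 in serotonin valves, 400.0, 394, 329, 402 and 380.3 in pergolide valves, and 368, 398, 435, 365 and 362 in dexfenfluramine valves. Pergolide replicate 3 was the only drug valve within the non-treated range, and CLTC rose by 0.41 ± 0.09 and 0.43 ± 0.09. The calls of AP2B1 and CLTC were kept with svaseq variables.

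The subunits of the other adaptor complexes moved with them. AP1G1, the γ subunit of AP1, which works between the trans-Golgi and endosomes, rose by 0.33 ± 0.08 for pergolide and 0.44 ± 0.08 for dexfenfluramine. AP3M1, the μ subunit of AP3, which sorts cargo to lysosomes, rose by 0.54 ± 0.13 and 0.65 ± 0.13. AP4B1, the β subunit of AP4 at the trans-Golgi, rose by 0.46 ± 0.14 and 0.46 ± 0.14, and its calls ended without non-treated replicate 1, without pergolide replicate 1 (lowest value 0.39) and without dexfenfluramine replicate 1 (lowest value 0.34). AP1AR, a regulator that ties AP1 vesicles to the cytoskeleton, was the gene that fell, and its level was 28.1, 28.2, 24.2, 37.4 and 28.5 CPM in non-treated valves, 25.2, 30.7, 25.7, 27.6 and 26.4 in serotonin valves, 21.1, 17.9, 20.2, 17.1 and 18.2 in pergolide valves, and 20.7, 16.2, 18.2, 17.9 and 18.6 in dexfenfluramine valves. No drug valve reached the lowest non-treated valve of AP1AR (−0.63 ± 0.11 and −0.67 ± 0.11). With svaseq variables both AP1AR calls and the dexfenfluramine call of AP1G1 were kept. The pergolide call of AP1G1 (0.16) and all calls of AP3M1 (0.49 and 0.51) and AP4B1 (0.37 and 0.52) ended.

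**Figure D3:**
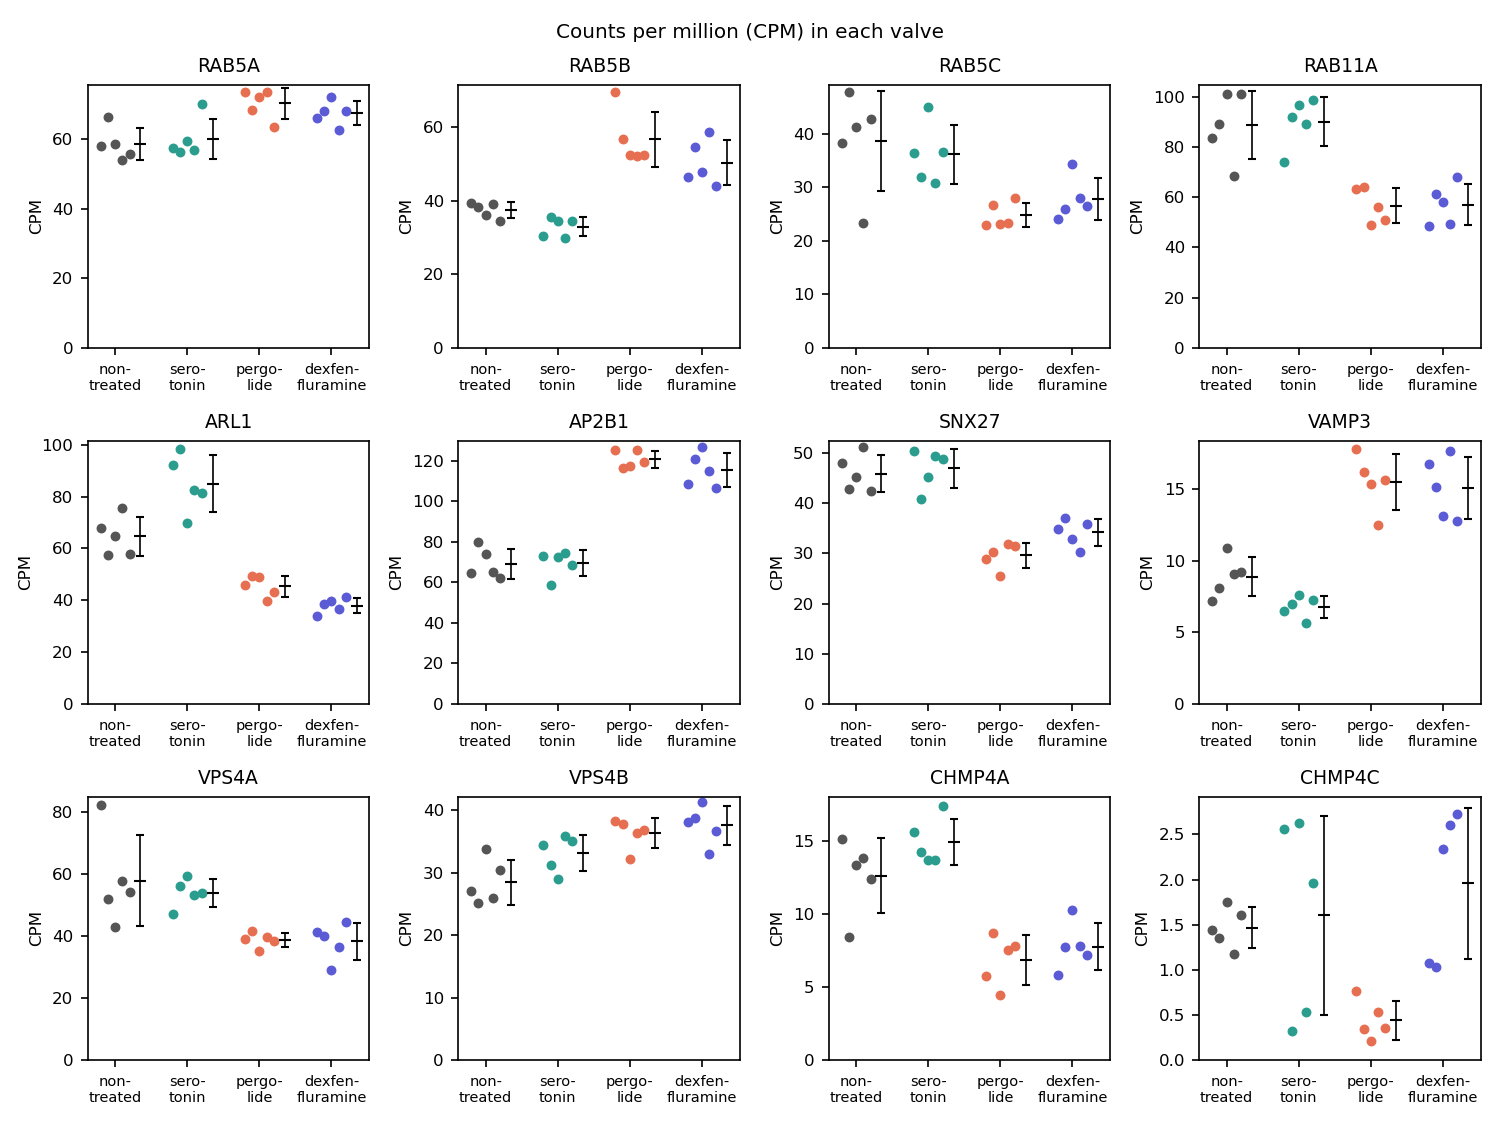
CPM (y axis) of 12 genes in each valve, with the mean and SD of the 5 valves of each group (x axis). RAB5B, AP2B1 and VAMP3 are higher and RAB11A, ARL1, SNX27 and CHMP4A lower in the pergolide and dexfenfluramine valves, and CHMP4C is low in all pergolide valves, at 0.211 to 0.766 CPM, and in serotonin replicates 2 and 4.

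Many sorting nexins bind phosphoinositides on endosomes and sort cargo there, and 8 sorting nexins are members. Under pergolide 3 rose and 2 fell (1 and 2 with DESeq2's size factors or without the gene with the most counts, so that the majority turned), and under dexfenfluramine 3 rose and 2 fell (4 and 2 with upper-quartile scaling). SNX27, which returns receptors from endosomes to the surface together with the retromer complex, stood at 48.0, 42.8, 45.1, 51.2 and 42.3 CPM in non-treated valves, 50.3, 40.8, 45.3, 49.3 and 48.9 in serotonin valves, 28.9, 30.2, 25.5, 31.8 and 31.5 in pergolide valves, and 34.9, 37.1, 32.8, 30.2 and 35.9 in dexfenfluramine valves. All drug valves were lower than all others, and SNX27 fell (−0.63 ± 0.09 and −0.42 ± 0.09). VPS26A, a core subunit of retromer, fell too (−0.41 ± 0.08 and −0.44 ± 0.08), with means of 95.6 ± 8.01, 98.2 ± 6.21, 71.8 ± 6.87 and 70.6 ± 5.06 CPM (SD) in the order of groups used above. SNX6, a retromer-associated sorting nexin, stood at −0.26 ± 0.11 for pergolide, uncalled, and fell for dexfenfluramine (−0.36 ± 0.11). SNX12, of early endosomes, fell under pergolide (−0.66 ± 0.18, −0.30 ± 0.18 for dexfenfluramine). With svaseq variables the calls of SNX27, VPS26A and SNX6 (−0.60) were kept. SNX6 was called for pergolide too (−0.41), and the SNX12 call ended (−0.37).

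SNX17, which recycles integrins by a route separate from retromer, moved the other way. Its level was 19.8, 19.0, 25.5, 21.8 and 18.9 CPM in non-treated valves, 19.1, 18.4, 26.0, 15.8 and 27.8 in serotonin valves, 29.1, 27.5, 20.0, 36.9 and 30.1 in pergolide valves, and 34.0, 32.4, 37.6, 31.3 and 29.3 in dexfenfluramine valves. Dexfenfluramine valves were all above the non-treated ones, and pergolide replicate 3 lay among them. SNX17 rose (0.45 ± 0.16 and 0.64 ± 0.16), and its pergolide call ended in 8 of 10 fits without 1 valve (0.34 to 0.55). SNX13 rose (0.30 ± 0.07 and 0.27 ± 0.07), and so did SNX14 (0.24 ± 0.08 and 0.25 ± 0.08), whose calls ended in 8 and 5 of 10 fits (0.17 to 0.28 and 0.19 to 0.29), while SNX25, which shares their domain structure, was not called (0.23 ± 0.11 and 0.28 ± 0.11). SNX13 kept its calls with svaseq variables, and SNX14 (0.12 and 0.15) and SNX17 (0.28 and 0.38) did not.

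Of the 9 VPS genes, 3 rose and 2 fell under pergolide (4 and 2 with upper-quartile scaling), and 3 rose and 4 fell under dexfenfluramine. VPS18 is a core subunit of the HOPS and CORVET tethers, which fuse endosomes with each other and with lysosomes. VPS18 stood at 2.53, 2.17, 2.81, 2.35 and 2.53 CPM in non-treated valves, 1.63, 2.53, 3.51, 1.88 and 2.25 in serotonin valves, 4.02, 4.44, 7.38, 4.57 and 3.91 in pergolide valves, and 7.32, 5.52, 3.96, 2.98 and 5.45 in dexfenfluramine valves. Each drug valve but dexfenfluramine replicate 4 was above the highest serotonin valve, and all were above the non-treated valves, at 16 to 35 reads a valve. VPS18 rose by 0.95 ± 0.26 and 1.00 ± 0.26. VPS50, a subunit of the EARP tether for endosomal recycling, rose by 0.30 ± 0.09, not called without non-treated replicate 1 or without non-treated replicate 2 (lowest value 0.23), and 0.36 ± 0.09. Neither VPS18 (0.76 and 0.87) nor VPS50 (0.17 and 0.30) was called with svaseq variables.

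VPS4A and VPS4B are paralogous ATPases that take ESCRT-III filaments apart after membranes are cut. VPS4A stood at 82.2, 52.0, 43.0, 57.7 and 54.1 CPM in non-treated valves, 47.1, 56.0, 59.3, 53.1 and 53.9 in serotonin valves, 39.1, 41.5, 34.98, 39.6 and 38.3 in pergolide valves, and 41.3, 39.8, 29.0, 36.3 and 44.6 in dexfenfluramine valves. VPS4B stood at 27.1, 25.2, 33.9, 25.9 and 30.4 CPM in non-treated valves, 34.5, 31.3, 28.9, 35.9 and 35.1 in serotonin valves, 38.3, 37.8, 32.2, 36.4 and 36.8 in pergolide valves, and 38.1, 38.8, 41.4, 33.0 and 36.7 in dexfenfluramine valves. VPS4A was highest in non-treated replicate 1 and lower in all drug valves than in the others except dexfenfluramine replicate 5, and VPS4B was higher in most drug valves, with overlap. VPS4A fell (−0.57 ± 0.14 and −0.59 ± 0.14) and VPS4B rose (0.34 ± 0.09 and 0.39 ± 0.09). With svaseq variables all 4 calls ended, at −0.25 and −0.20 for VPS4A and 0.26 and 0.29 for VPS4B.

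VPS45, a Sec1/Munc18 protein for fusion at early endosomes, fell under dexfenfluramine (−0.68 ± 0.18) and stood at −0.29 ± 0.18 under pergolide and −0.35 ± 0.19 under serotonin. VPS13A and VPS13B, which move lipids between membranes, were not called (0.20 ± 0.08 and 0.05 ± 0.08 for VPS13A, 0.09 ± 0.07 and 0.14 ± 0.07 for VPS13B). VPS72 carries the prefix but is a subunit of chromatin remodelling complexes. It fell under dexfenfluramine (−0.50 ± 0.13, −0.18 ± 0.13 for pergolide). The calls of VPS45 and VPS72 ended with svaseq variables, at −0.14 for VPS45 and −0.48 for VPS72.

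The 3 CHMP genes encode ESCRT-III subunits, which form the filaments that bud vesicles into endosomes and seal membranes. Under pergolide all 3 fell and under dexfenfluramine 2 did, also with the 3 other scalings. CHMP4A, a core subunit of the filament, stood at 15.2, 8.40, 13.3, 13.8 and 12.4 CPM in non-treated valves, 15.6, 14.2, 13.7, 13.7 and 17.4 in serotonin valves, 5.75, 8.71, 4.43, 7.56 and 7.83 in pergolide valves, and 5.81, 7.76, 10.3, 7.83 and 7.21 in dexfenfluramine valves. Serotonin valves were all above all drug valves, and non-treated replicate 2 lay within the drug range. CHMP4A fell (−0.87 ± 0.19 and −0.69 ± 0.18). CHMP5 fell (−0.35 ± 0.07 and −0.32 ± 0.07), with means of 88.5 ± 2.24, 95.5 ± 4.22, 69.3 ± 4.33 and 71.0 ± 5.26 CPM (SD) in the order of groups used above. CHMP4C, a paralog that also delays the last cut of cell division, had 127 counts over the 20 valves, 1.44, 1.36, 1.76, 1.18 and 1.61 CPM in non-treated valves, 2.56, 0.317, 2.63, 0.536 and 1.97 in serotonin valves, 0.766, 0.342, 0.211, 0.528 and 0.356 in pergolide valves, and 1.08, 1.03, 2.34, 2.61 and 2.73 in dexfenfluramine valves. Pergolide valves, with 1 to 4 reads each, were all below the non-treated and the dexfenfluramine valves. CHMP4C fell under pergolide (−1.70 ± 0.51) and stood at 0.40 ± 0.40 under dexfenfluramine. It passed the filter on low counts only through serotonin replicates 1 and 3 (11 and 9 reads) and dexfenfluramine replicates 3, 4 and 5 (13, 14 and 17 reads). Its low pergolide values are therefore no independent result. With svaseq variables the calls of CHMP5 and the pergolide call of CHMP4A were kept. Those of CHMP4C and of CHMP4A for dexfenfluramine ended, at fold changes of −1.61 and −0.80.

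Among the 5 SNARE and syntaxin-binding genes, 3 rose and 1 fell under pergolide (2 and 1 without the gene with the most counts), and 3 rose under dexfenfluramine. VAMP3, the SNARE of recycling endosomes, stood at 7.21, 8.13, 10.9, 9.12 and 9.20 CPM in non-treated valves, 6.52, 6.96, 7.60, 5.63 and 7.30 in serotonin valves, 17.8, 16.2, 15.4, 12.5 and 15.7 in pergolide valves, and 16.8, 15.2, 13.1, 17.7 and 12.8 in dexfenfluramine valves. Every drug valve was above every other valve, and the serotonin mean was the lowest. VAMP3 rose by 0.78 ± 0.14 and 0.74 ± 0.14. VAMP8, the SNARE of late endosomes and of several kinds of secretion, rose by 0.91 ± 0.29 and 0.98 ± 0.29, with the pergolide call ended in 6 of 10 fits (0.76 to 1.14). With svaseq variables the VAMP8 calls were kept, at larger fold changes of 1.51 and 1.57. The VAMP3 calls ended there, at 0.58 and 0.62.

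STX18, a SNARE of the endoplasmic reticulum, had means of 8.05 ± 1.15, 10.3 ± 1.35, 5.904 ± 0.274 and 7.23 ± 1.35 CPM (SD) in the same order of groups. It fell under pergolide (−0.44 ± 0.15, ended in 8 of 10 fits, −0.52 to −0.38) and stood at −0.15 ± 0.15 under dexfenfluramine. STXBP6, or amisyn, which binds syntaxins in place of a vesicle SNARE, rose by 0.37 ± 0.13 for pergolide (ended in 6 fits, 0.30 to 0.41) and 0.40 ± 0.13 for dexfenfluramine (not called without non-treated replicate 5 or without dexfenfluramine replicate 4, lowest value 0.33), and stood at 0.42 ± 0.13 for serotonin. STXBP5, or tomosyn, which holds back SNARE assembly, was not called (0.13 ± 0.13 and 0.32 ± 0.13). EXOC4, the SEC8 subunit of the exocyst, which ties secretory vesicles to the cell surface, was not called either (0.11 ± 0.10 and 0.21 ± 0.10). STXBP6 kept its calls with svaseq variables (0.48 and 0.57), and STX18 did not (−0.16).

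The calls differed in how far they rested on single valves. In every fit that left out 1 valve, 29 of the 44 pergolide calls and 32 of the 45 dexfenfluramine calls were kept, and no member changed direction where called.

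Serotonin, set against non-treated valves, gave no member a call in edgeR (0 of 63, where 1.19% of all tested genes were called), and its valves overlapped with the non-treated ones in all 63 (2.66% of all genes did not overlap). At an unadjusted p under 0.05 stood 11 members, where 15.8% of all tested genes did. DESeq2 called 1 member and limma-voom called 1, in both cases ARL1 (0.38 and 0.39), and limma-voom with svaseq variables called 0. Of all tested genes these fits called 2.69%, 1.31% and 1.23%. Without serotonin replicate 3 edgeR called ARL1 as well (0.45), where 1.49% of all genes were called. Without the pair of valves that stood apart edgeR called 3: ARL1 (0.39), RAB23 (0.42) and SNX24 (−0.88), in a fit that called 5.53% of all genes for serotonin. The median size of the members' fold changes was 0.11, beside 0.18 over all genes and 0.17 over the tested genes of the list. All members entered through sections of the list for the drugs, none through those for serotonin alone (where ARL1 also stands) or for all treatments. The count of 0 and the small median are therefore no independent result, and how far the choice of members set them was not tested. Of the tested genes of the list, 1.62% were called for serotonin.

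Some members were picked because their serotonin values lay far on the other side of the non-treated level from those of the drugs. The comparisons share the non-treated valves, so their values are only set side by side. SNX24 stood at 7.21, 8.13, 4.74, 8.53 and 5.98 CPM in non-treated valves, 3.73, 5.38, 3.21, 5.10 and 2.81 in serotonin valves, 9.58, 12.3, 9.06, 7.91 and 10.1 in pergolide valves, and 9.47, 10.0, 3.60, 8.20 and 10.3 in dexfenfluramine valves. Serotonin valves were low and drug valves high, except dexfenfluramine replicate 3 at 3.60 CPM. The fold changes of SNX24 were −0.75 ± 0.28, 0.53 ± 0.24 and 0.29 ± 0.24 for serotonin, pergolide and dexfenfluramine. On log2 CPM minus the non-treated mean, dexfenfluramine replicate 3 stood at −0.84 and the other valves of its group at 0.26 to 0.57. VAMP3 had −0.41 ± 0.15 for serotonin and ARF5 −0.28 ± 0.26, both with rises under the drugs. ARL1 had 0.39 ± 0.10 and RAB23 0.30 ± 0.14, both with falls under the drugs, and RAB23 stood at 52.3, 50.4, 81.6, 51.8 and 72.0 CPM in non-treated valves, 79.0, 81.0, 70.7, 68.9 and 80.9 in serotonin valves, 39.7, 46.0, 37.3, 40.8 and 48.9 in pergolide valves, and 41.1, 34.3, 58.7, 43.2 and 47.5 in dexfenfluramine valves. Serotonin valves of RAB23 were all above all drug valves.

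Drug and serotonin valves were then set against each other. These contrasts did not choose the members but use treated valves that did, so their calls are no independent test. Between pergolide and serotonin 41 members were called, 24 higher and 17 lower under pergolide, where 27.5% of all tested genes were called, 12.4% higher and 15.1% lower, and 46.5% of tested genes in the study's list. Valves did not overlap in 34 members (20.3% of all genes). Between dexfenfluramine and serotonin 40 were called, 25 higher and 15 lower, where 30.3% of all tested genes were called, 13.9% higher and 16.4% lower, and 53.5% of tested genes in the list. Valves did not overlap in 32 (20.9% of all genes). With svaseq variables limma-voom called 27 and 23, and 17.3% and 15.9% of all genes. In every fit without 1 valve 31 of the 41 and 35 of the 40 calls were kept.

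By class, the clathrin and adaptor genes had 5 higher and 1 lower in either drug than in serotonin with all 4 scalings. The CHMP genes had 3 lower in pergolide and 2 lower in dexfenfluramine, and the sorting nexins 4 higher and 3 lower in pergolide (2 and 3 with DESeq2's size factors, so that the majority turned) and 4 and 2 in dexfenfluramine. ARL1 was −0.90 ± 0.10 for pergolide and −1.16 ± 0.10 for dexfenfluramine against serotonin, VAMP3 1.19 ± 0.14 and 1.15 ± 0.14, and SNX24 1.28 ± 0.26 and 1.04 ± 0.26. Some members without a call against non-treated valves had one here. RAB34 was higher under dexfenfluramine than under serotonin (1.00 ± 0.29), as were STXBP5 (0.54 ± 0.14) and EXOC4 (0.29 ± 0.10, ended in 6 of 10 fits, 0.22 to 0.32), and RAB3GAP1 was lower under both drugs (−0.19 ± 0.07, ended in 4 fits, −0.22 to −0.17, and −0.27 ± 0.07). None of these 4 genes was called with svaseq variables. RAB34 stood there at 0.54, STXBP5 at 0.36, EXOC4 at 0.24 and RAB3GAP1 at −0.18 and −0.22. ARL1, VAMP3 and SNX24 were called there. Others had a call against non-treated valves and none here: RAB10 stood at −0.13 ± 0.09 and −0.11 ± 0.09 and VPS4B at 0.13 ± 0.09 and 0.18 ± 0.09, with serotonin means between those of the non-treated and the drug valves.

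Between dexfenfluramine and pergolide no member was called by edgeR (0 of 63, where 0% of all tested genes were called), DESeq2, limma-voom or limma-voom with svaseq variables (0 each), and 6 stood at an unadjusted p under 0.05, where 7.06% of all tested genes did. The interval of the difference (95%) included 0 in 57 members and lay within 0.5 of 0 on the log2 scale in 46. For the other 17 a difference of 0.5 or more in size is within the interval. A p above the threshold does not show that the drugs act alike, and their doses differ. The 6 members were CHMP4C (2.09, interval 1.12 to 3.07), RAB11FIP4 (0.67, 0.16 to 1.17), ARL1 (−0.26, −0.47 to −0.05), SNX27 (0.21, 0.03 to 0.39), VPS72 (−0.32, −0.59 to −0.06) and VPS45 (−0.39, −0.77 to −0.01), given as dexfenfluramine minus pergolide. Valves of the drugs did not overlap in 1 member, CHMP4C, where 1.43% of all genes did not. CHMP4C passed the filter on low counts through serotonin and dexfenfluramine valves alone, so its gap between the drugs is no independent result.

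**Figure D4:**
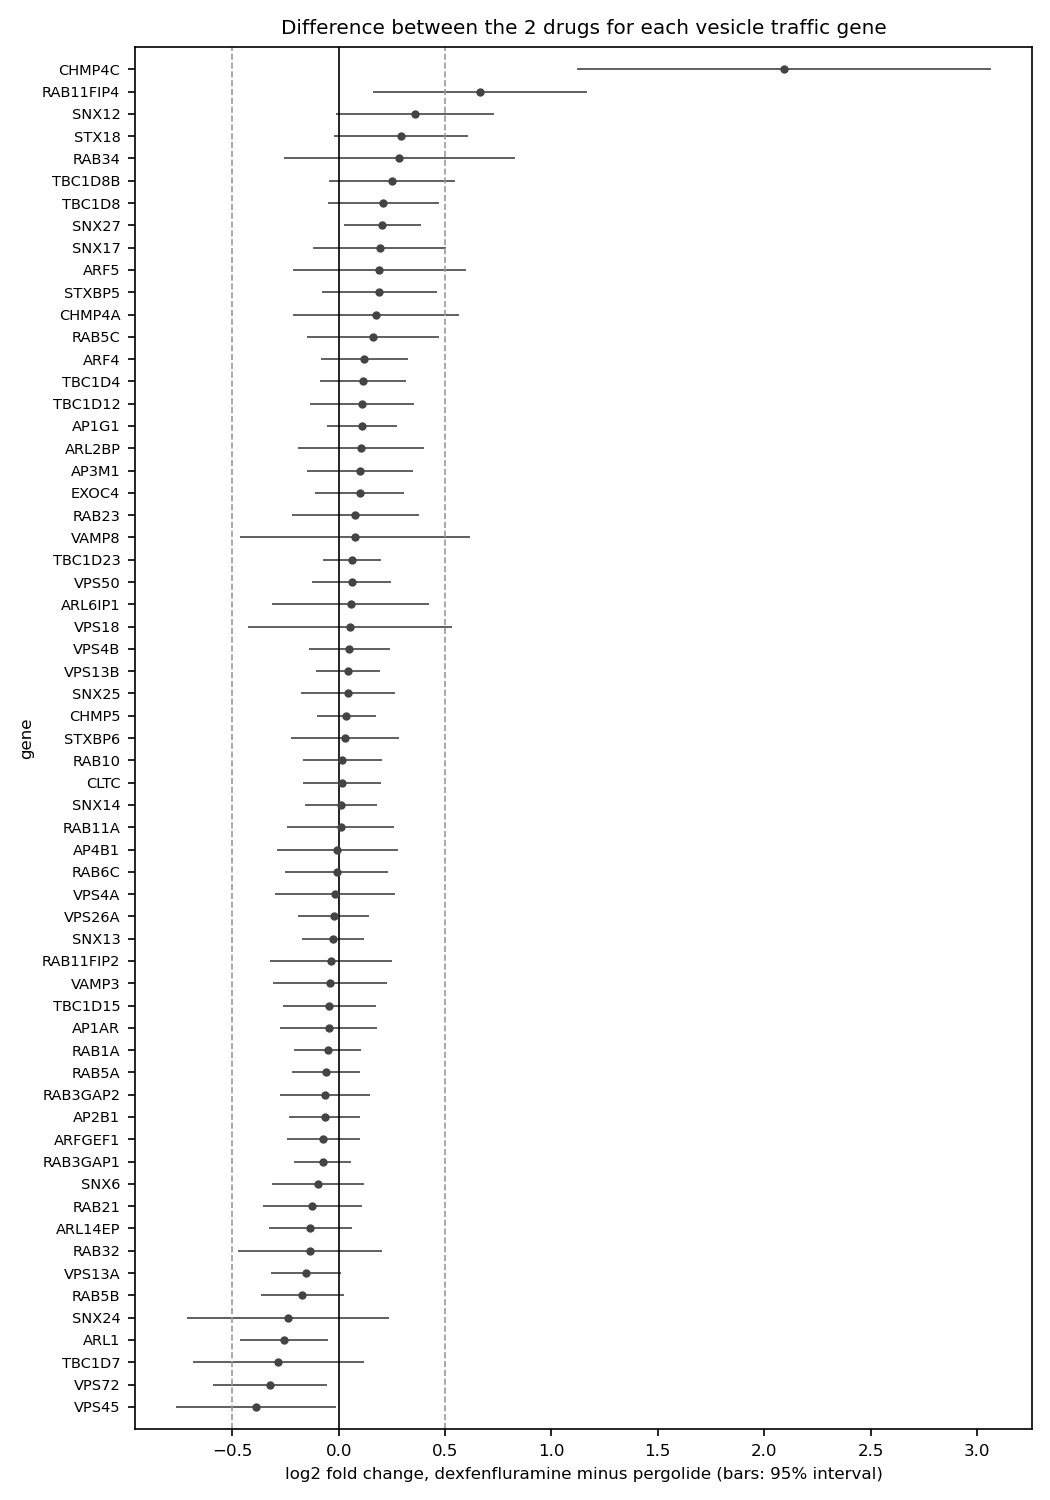
Log2 fold change of dexfenfluramine minus pergolide (x axis) with its 95% interval for each of 61 genes (y axis), 5 valves a group, with dashed lines at 0.5 either side of 0. The interval includes 0 for most genes, and CHMP4C stands apart at 2.09.

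Of 210 other vesicle traffic genes in 7 lists, 46 had a symbol in the study's list and were tested, so the same contrasts chose them. Under pergolide 16 rose and 13 fell, and under dexfenfluramine 20 rose and 15 fell. Called for the same drugs were 24.8% and 28.9% of all tested genes, and 55.4% and 66.6% of the tested genes of the study's list. Among 3 tested genes of clathrin light chain, GGA adaptors and dynamin, 2 rose and 1 fell for either drug. CLTA, the clathrin light chain that pairs with CLTC, fell from 93.3 ± 15.4 CPM to 58.7 ± 7.29 and 58.1 ± 4.45 (−0.67 ± 0.11 and −0.68 ± 0.11, 0.35 ± 0.11 for serotonin), opposite to CLTC, and GGA2, an adaptor at the trans-Golgi, rose (0.50 ± 0.13 and 0.49 ± 0.13). Among 9 tethers of Golgi and endosomes, 2 rose and 5 fell for either drug. GOLGA4 and GCC2, golgins that ARL1 recruits, fell (−0.59 ± 0.16 and −0.80 ± 0.16 for GOLGA4, −0.36 ± 0.08 and −0.25 ± 0.08 for GCC2). Like ARL1 they had higher means under serotonin, and GCC2 was the 1 gene of the 46 that rose there (0.38 ± 0.08, 0.31 ± 0.16 for GOLGA4). RABEP1, a RAB5 effector, fell (−0.55 ± 0.11 and −0.74 ± 0.11), and COG1, of the Golgi tether COG, was highest of the list (0.48 ± 0.18, and a rise of 0.56 ± 0.18 for dexfenfluramine).

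Among 6 coat genes of COPI and COPII, 1 rose under pergolide, COPZ2 (0.93 ± 0.23, 0.59 ± 0.23 for dexfenfluramine), and under dexfenfluramine 1 rose and 1 fell, SAR1B (−0.46 ± 0.14, −0.18 ± 0.14 for pergolide), the GTPase that starts COPII coats. Of 4 other SNARE genes 1 rose and 1 fell for either drug, BET1 of the early secretory pathway (0.77 ± 0.18 and 0.87 ± 0.18) and VTI1B of late endosomes (−0.38 ± 0.10 and −0.41 ± 0.10). USP8, a deubiquitinase that works with ESCRT-0 and the 1 tested gene of its list, fell (−0.22 ± 0.07 and −0.27 ± 0.07). Of 15 RAB and ARF regulators with other names, 6 rose and 3 fell under pergolide and 10 rose and 3 fell under dexfenfluramine. IQSEC1, an exchange factor for ARF6, had the highest mean of the drugs (0.53 ± 0.13 and 0.66 ± 0.13) and RABGGTB, a subunit of the enzyme that attaches lipid anchors to RAB proteins, the lowest mean (−0.57 ± 0.12 and −0.65 ± 0.12). Of 8 sorting receptors and lysosome membrane genes, 4 rose and 2 fell under pergolide and 4 rose and 3 fell under dexfenfluramine, with TMED7 (1.21 ± 0.14 and 1.12 ± 0.14) and TMED5 (−0.62 ± 0.11 and −0.62 ± 0.11), both cargo receptors of the early secretory pathway, highest and lowest by the mean of the drugs.

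Markers of cell types differed between groups as well, and only markers with a symbol in the study's list could be read. That list holds genes called against the same non-treated valves, so calls of the markers are no independent test. Of the tested genes of the list, 55.4% were called for pergolide and 66.6% for dexfenfluramine, beside 24.8% and 28.9% of all tested genes. Of 26 cardiomyocyte markers 16 were tested, 1 fell under pergolide and 6 under dexfenfluramine, and TTN was the most abundant. Their summed CPM was 147247, 110579, 51213, 156694 and 101283 in non-treated valves, 55280.2, 107615, 62653, 100449 and 65773 in serotonin valves, 84902, 95188, 95686, 54784 and 49968 in pergolide valves and 73463, 54479.6, 13019, 62710.4 and 73781 in dexfenfluramine valves. The sums overlapped between all groups, and the part of cardiomyocyte RNA in the members' values was not tested.

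**Figure D5:**
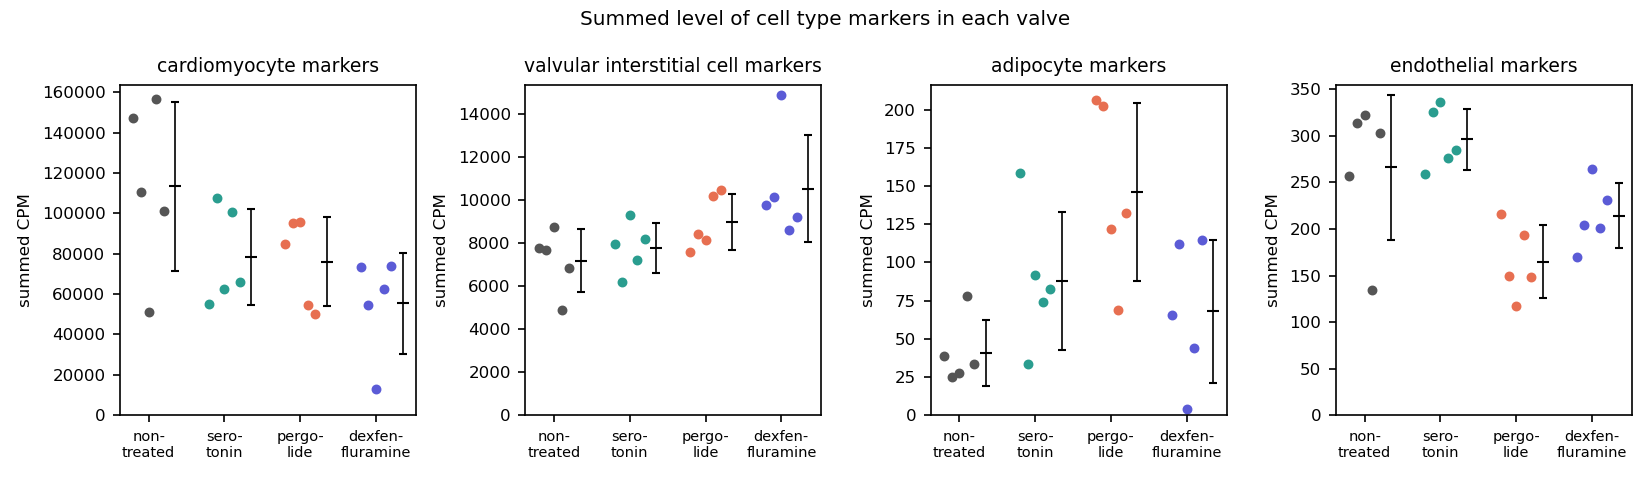
Summed CPM (y axis) of the tested markers of cardiomyocytes, valvular interstitial cells, adipocytes and endothelial cells in each valve, with mean and SD of the 5 valves of each group (x axis). Cardiomyocyte sums are highest in most non-treated valves and lowest, at 13019, in dexfenfluramine replicate 3.

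Of 14 markers of valvular interstitial cells 7 were tested, 5 rose under pergolide and 4 under dexfenfluramine, with the most abundant, VIM, not called (−0.08 ± 0.19 and 0.37 ± 0.19). Their summed CPM was 7789.7, 7697, 8738, 4872 and 6846 in non-treated, 7965, 6188, 9316, 7214 and 8189 in serotonin, 7571, 8407, 8149.9, 10215 and 10492 in pergolide and 9794, 10131, 14889, 8623 and 9242 in dexfenfluramine valves. Of 14 adipocyte markers 5 were tested, and all 5 rose under pergolide, with ADIPOQ the most abundant, mean sums of 40.4 ± 21.7, 88.0 ± 45.3, 146 ± 58.3 and 68.0 ± 47.0 CPM (SD) in the same order of groups and 3.78 in dexfenfluramine replicate 3. Of 12 endothelial markers 2 were tested (PECAM1 the more abundant), and both fell under pergolide, with sums of 257, 314, 322, 135 and 303 CPM in non-treated valves and 216, 149, 117, 194 and 148 in pergolide valves and means of 266 ± 77.8, 296 ± 32.9, 165 ± 39.7 and 214 ± 35.2 (SD) over the 4 groups. Non-treated replicate 4 was below all but pergolide replicate 3. Of 12 macrophage markers 2 were tested (C1QA the more abundant), with 1 rise under pergolide and mean sums of 16.2 ± 7.30, 21.3 ± 9.84, 32.9 ± 12.5 and 28.7 ± 4.22. Of 9 smooth muscle markers 3 were tested (DES the most abundant), with 1 rise under pergolide, 1 rise and 1 fall under dexfenfluramine, and mean sums of 428 ± 151, 371 ± 72.2, 414 ± 34.4 and 315 ± 132. DES also stands among the cardiomyocyte markers and made most of the smooth muscle sum, with a mean of 379 CPM in non-treated valves. No erythroid marker of 9 had a symbol, so none could be read. Interstitial cell sums were above the highest non-treated sum in 2 of 5 pergolide and 4 of 5 dexfenfluramine valves, adipocyte sums were high under pergolide, and endothelial sums were low there and in non-treated replicate 4, and the part of these cells in the members' values was not tested.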

How the data were processed

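After depletion of ribosomal RNA and a stranded library kit, the authors mapped reads with TopHat2 (2.1.1 in the submitters' notes) to the rabbit genome oryCun2, and HTSeq (union mode) counted reads of each Ensembl gene. They deposited whole read counts without normalization or filtering; strand setting and handling of reads with several alignments are not given. Valves were grouped by the column letters and the sample labels, the letter w standing for non-treated. Symbols come from the study's list of differentially expressed genes, which pairs them with Ensembl IDs.

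The members and all gene lists were chosen with earlier results of these data known. Counts of all 20 valves were fitted together in edgeR 4.0.16 (R 4.3.3) with TMM scaling, filterByExpr over the 4 groups and the quasi-likelihood test, with Benjamini-Hochberg adjustment over 8683 genes and a threshold of 0.05; standard errors come from the fold change and the F statistic. The study names limma-voom with svaseq and RUVr, without their number of variables, so that fit is an alternative. The tests were tested on simulated data. Log2 CPM for principal components, correlations and the heat map used a prior count of 2.

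A rule named the highest and lowest member of each class by the mean fold change of the drugs, members called for serotonin, the 4 with the largest opposite serotonin value and the 3 with the largest difference between the drugs, 27 in all, of which 2 are left out of the text and the figures. The other members, and RABEP1, GCC2 and the 6 at p under 0.05 between the drugs, were named after their values were seen. Alternatives were DESeq2 1.42.0, limma-voom (limma 3.58.1) without and with svaseq (sva 3.50.0, 4 variables), DESeq2's size factors, upper-quartile scaling, TMM without the gene with the most counts, only genes with 10 counts or more in all valves, no filter, a fit of only the groups compared, replicate number as a block, a threshold of 0.01 and each valve left out. Tables and plots used Python 3.11.15 with numpy 2.4.6, pandas 2.3.3 and matplotlib 3.10.9. RUVr was left out, as its number of variables is not given, and filterByExpr took the place of the authors' HTSFilter. With 5 valves a group the spread between valves limits precision, and for genes with few reads the error of counting adds to it.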

Additional observations from a re-analysis of the deposited data

Results flagged for a closer look

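In 4 of 108 groups of 5 valves (27 members in 4 groups), the highest or lowest valve lay far from the others. Its gap to the nearest neighbour was over 0.71 of the group's range. Gap and range were taken on log2 CPM with a prior count of 2, not on the CPM printed below. Chance gives such a gap in about 1 in 20 groups. EXOC4 was highest in dexfenfluramine replicate 3, at 87.8 CPM, with a gap of 0.767 of the range. SNX24 was lowest in the same valve, at 3.60 CPM (0.781). RAB11FIP4 was highest in non-treated replicate 1, at 7.58 CPM (0.802), and VPS18 was highest in pergolide replicate 3, at 7.38 CPM (0.759). The reason for these values was not tested.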

How the results depend on the processing

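No member changed direction where called, in any setting, and for the 27 members named by rule over all comparisons 3145 values stayed on their side of the threshold, 185 lost a call, 17 gained one and 25 without a call moved by more than their standard error. For serotonin against non-treated valves (0 members), DESeq2 called 1, limma-voom called 1, and leaving out each valve gave 0 to 1. Of all tested genes these fits called 2.69%, 1.31% and 0% to 2.93%. For pergolide (44), limma-voom with svaseq variables called 24, a threshold of 0.01 left 25, and leaving out each valve gave 32 to 41. Of all tested genes 13.3%, 13.7% and 20.2% to 26.0% were called there. For dexfenfluramine (45) the member counts in the same order were 21, 29 and 38 to 49, beside 11.4%, 16.2% and 23.1% to 32.0% of all tested genes. For pergolide against serotonin (41) they were 27, 26 and 33 to 38, beside 17.3%, 17.0% and 23.7% to 25.2%. For dexfenfluramine against serotonin (40) they were 23, 32 and 36 to 40, beside 15.9%, 18.5% and 25.2% to 28.8%. Between the drugs every setting gave 0 members. The stricter threshold lowers counts by construction, and the cause of the lower counts with svaseq variables was not tested. With the replicate block the counts were 0, 39, 44, 37, 39 and 0 in the order above. Of all tested genes 0.012%, 22.9%, 27.2%, 25.7%, 28.6% and 0% were called there. Correlations between same-numbered valves ran from −0.34 to 0.49. Valves with different numbers were not set beside them, so whether the numbers pair the valves was not tested. An alternative chosen after seeing the data left out non-treated replicate 3 and dexfenfluramine replicate 3 and called 3, 41, 43, 41, 39 and 0. Of all tested genes it called 5.53%, 28.4%, 28.3%, 30.1%, 29.1% and 0%. The cause of the 3 serotonin calls was not tested. With at least 10 counts in every valve 58 members could be tested. Depth limits genes such as CHMP4C, with 1 to 4 reads in each pergolide valve, and symbols limit the other traffic and marker genes to those on the study's list.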
